A study of Mus musculus with 14 samples.

Results

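The EGR, KLF and NR4A response factors followed here are 10 transcription factor genes: Egr1, Egr2 and Egr3, Klf2, Klf4, Klf6 and Klf10, and Nr4a1, Nr4a2 and Nr4a3. They were taken by gene symbol from both tables of raw read counts, and all 10 were found among the 55367 symbols listed in each table. Poly-A RNA was sequenced in 14 libraries of mouse bone marrow cells depleted of lineage-marked cells, of wild-type genotype, grown with SCF, IL6 and IL3 in IMDM that held 15% fetal bovine serum. Cells of the first experiment carried a pSMAL lentivirus for luciferase (3 libraries) or for SETBP1D868N (3 libraries), a form of the nuclear protein SETBP1 with a substitution in the stretch that controls its turnover, and 500 ng of RNA entered the library kit. In the second experiment all cells carried SETBP1D868N and received DMSO (4 libraries) or 2.5 µM PF-9363 (4 libraries) for 4 days, with 100 ng of RNA per library. PF-9363 inhibits KAT6A and KAT6B, enzymes that acetylate histone H3. The labels give no strain, age or count of animals, and do not say whether the libraries of a group came from separate animals or cultures, so the p-values measure the spread between these libraries, which may be technical.

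EGR proteins are zinc finger activators and repressors that bind GC-rich DNA, and their genes are switched on within minutes of growth factor signals through serum response factor and its partners. KLF proteins bind GC-rich and CACCC sequences through a related zinc finger domain. Klf2 and Klf4 are known for quiescence and for monocyte differentiation, and Klf6 and Klf10 for responses to injury and to TGF-beta. NR4A proteins are nuclear receptors that act without a known natural ligand, are induced through cyclic AMP and calcium signals acting on CREB, and restrain proliferation of blood stem cells and inflammatory gene expression in myeloid cells.

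Total counts ran from 60147266 to 68730322 in the first experiment and from 7083731 to 10359093 in the second, so that a gene with 0 counts may still lie at up to 0.0499 or 0.424 counts per 1000000 (CPM) in the shallowest library of each. These limits cover counting error only. The mouse Setbp1 row held 5 to 6 counts in the luciferase libraries and 20 to 24 in the SETBP1D868N libraries, but 0 to 2 in DMSO and 0 in every PF-9363 library. The labels do not state which species' sequence the vector carries, so these few counts are no measure of the vector's output, and they do not check the second experiment's shared transgene. T cell, B cell and natural killer markers were at or near 0, with sums of at most 0.539, 1.30 and 0.759 CPM. Summed markers of neutrophils, monocytes and mast cells were abundant in these cells, which are labelled as lineage-depleted. The neutrophil list includes primary granule genes of promyelocytes (Mpo, Elane and Prtn3), so its sum does not measure mature neutrophils alone.

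All 10 genes are protein coding, and in the GENCODE M21 annotation of GRCm38 no other gene overlaps any of them. The EGR genes lie on 3 chromosomes, with Egr1 on chromosome 18, Egr2 at chr10:67535475-67542188 and Egr3 at chr14:70077203-70082614, all on the plus strand. Among the KLF genes, Klf2 lies at chr8:72319033-72321656 and Klf6 at chr13:5861482-5870394 on the plus strand, and Klf4 at chr4:55527143-55532466 and Klf10 at chr15:38291463-38300706 on the minus strand. Nr4a1 lies at chr15:101254269-101274795 and Nr4a3 at chr4:48045153-48086447 on the plus strand, and Nr4a2 at chr2:57106830-57124003 on the minus strand.

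RefSeq promoter sequences (GRCm38.p6) were used for 7 of the 10 genes, at 11 start sites, and were searched over the 250 bases before each start. The promoters of Egr1, Egr3 and Klf10 were not searched. The stretches shown are those in which the NR4A genes can be compared with Egr2, Klf4 and Klf2. Each holds no exon base of its gene in the GENCODE M21 annotation. Those of Nr4a1 and Egr2 lie before a start site inside the gene's span, in introns of GENCODE M21 transcripts that start further upstream. Another RefSeq start site of Egr2, at 67537566, lies upstream of the stretch shown, and RefSeq exons were not checked. Capitals mark cyclic AMP response element half-sites, read as TGACG or its reverse complement, and the CArG box that serum response factor binds.

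Nr4a1 promoter, chr15:101266596-101266845, plus strand: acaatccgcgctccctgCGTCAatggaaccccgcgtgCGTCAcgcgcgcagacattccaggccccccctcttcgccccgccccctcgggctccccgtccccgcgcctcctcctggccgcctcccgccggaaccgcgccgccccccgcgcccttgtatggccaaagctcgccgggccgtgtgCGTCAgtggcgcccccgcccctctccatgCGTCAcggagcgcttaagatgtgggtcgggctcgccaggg
Nr4a2 promoter, chr2:57124004-57124253, minus strand: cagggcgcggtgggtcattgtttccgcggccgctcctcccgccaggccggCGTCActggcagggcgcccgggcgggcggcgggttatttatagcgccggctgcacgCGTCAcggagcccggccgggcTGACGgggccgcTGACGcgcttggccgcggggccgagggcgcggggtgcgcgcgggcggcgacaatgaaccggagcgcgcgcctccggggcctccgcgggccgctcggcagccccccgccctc
Nr4a3 promoter, chr4:48045055-48045152, plus strand: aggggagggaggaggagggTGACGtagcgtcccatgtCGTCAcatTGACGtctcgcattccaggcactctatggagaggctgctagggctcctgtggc
Egr2 promoter, chr10:67537619-67537868, plus strand: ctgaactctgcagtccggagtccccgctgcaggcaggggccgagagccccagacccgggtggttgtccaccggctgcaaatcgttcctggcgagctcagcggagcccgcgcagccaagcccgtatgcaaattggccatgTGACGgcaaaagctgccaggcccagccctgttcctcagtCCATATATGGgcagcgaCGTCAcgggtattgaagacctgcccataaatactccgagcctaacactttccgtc
Klf4 promoter, chr4:55532476-55532725, minus strand: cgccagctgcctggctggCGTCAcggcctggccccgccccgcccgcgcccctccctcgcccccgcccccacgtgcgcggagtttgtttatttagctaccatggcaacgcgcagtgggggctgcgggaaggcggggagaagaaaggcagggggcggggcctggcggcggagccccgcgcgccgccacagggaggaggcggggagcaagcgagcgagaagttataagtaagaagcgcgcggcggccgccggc
Klf2 promoter, chr8:72318812-72319032, plus strand: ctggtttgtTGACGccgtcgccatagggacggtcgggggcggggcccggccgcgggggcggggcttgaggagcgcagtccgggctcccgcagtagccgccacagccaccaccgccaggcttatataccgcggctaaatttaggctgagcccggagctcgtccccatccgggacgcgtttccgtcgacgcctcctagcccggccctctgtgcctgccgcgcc

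Each of the 3 NR4A windows held 4 half-sites, 3 of them within the shorter stretch shown for Nr4a3. At least 4 half-sites were found in 45 of 32851 windows of the same length, or 0.137%, and at least 1 in 17.8%. Of the other members, Klf2 and Klf4 held 1 half-site each, Klf6 held none of the motifs searched, and the Egr2 window shown held 2 half-sites beside 1 CArG box, a motif present in 1.47% of windows. The whole element TGACGTCA (1.55% of windows) and the NR4A site AAAGGTCA (1.34%) were not found in any of the 11 windows. The KLF and SP site GGGCGGG (23.4% of windows) occurred 4 times in the Klf4 window, and the EGR site GCGNGGGCG (4.70%) 2 times, with some matches overlapping each other. Both strands were searched, and a match describes letters only, not a bound site.

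**Figure D1:**
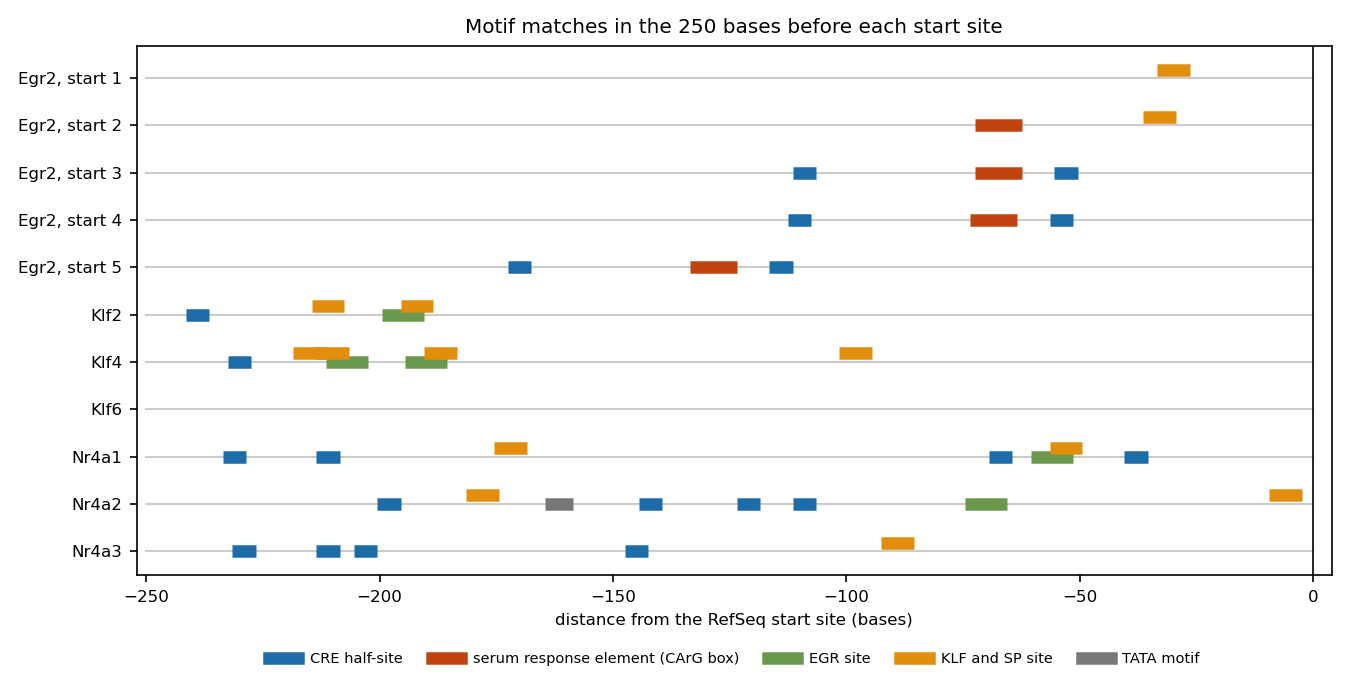
Positions of motif matches in the 250 bases before the start sites of the members whose promoter was searched, with distance from the start site in bases on the horizontal axis and 1 line per start site. The 3 NR4A windows carry 4 cyclic AMP response element half-sites each, and the Klf6 window carries no match.

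In the first experiment, SETBP1D868N libraries had lower levels of 7 of the 10 genes and a higher level of 1 (adjusted p under 0.05, edgeR quasi-likelihood test with Benjamini-Hochberg adjustment over 15794 genes). Egr2, Klf2, Klf4, Klf6, Klf10, Nr4a1 and Nr4a3 fell, Egr1 rose, and Egr3 and Nr4a2 did not pass the test. Over all genes tested 22.7% were called lower and 24.5% higher. Both directions together made up 47.2% of all genes and 8 of the 10 members. The groups did not overlap for 9 of the 10 members, against 56.7% of all genes. All 7 members that fell did so without overlap, as did 22.3% of all genes, and Egr1 rose without overlap, as did 24.2%. The median log2 change was -0.34 over the members and 0.0043 over all genes. In the second experiment, PF-9363 libraries had higher levels of 7 members and a lower level of 1, where 36.6% of 13456 genes tested were called higher, 39.4% lower and 76.0% in either direction. Egr2, Egr3, Klf4, Klf6, Klf10, Nr4a1 and Nr4a3 rose, Klf2 fell, and Egr1 and Nr4a2 did not pass the test. The groups did not overlap for 8 members, against 70.3% of all genes. All 7 that rose did so without overlap (33.5% of all genes), and so did Klf2, which fell (35.8%). Of the 7, 6 rose by at least 2-fold, against 15.8%. The median log2 change was 1.68 over the members and -0.038 over all genes.

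**Figure D2:**
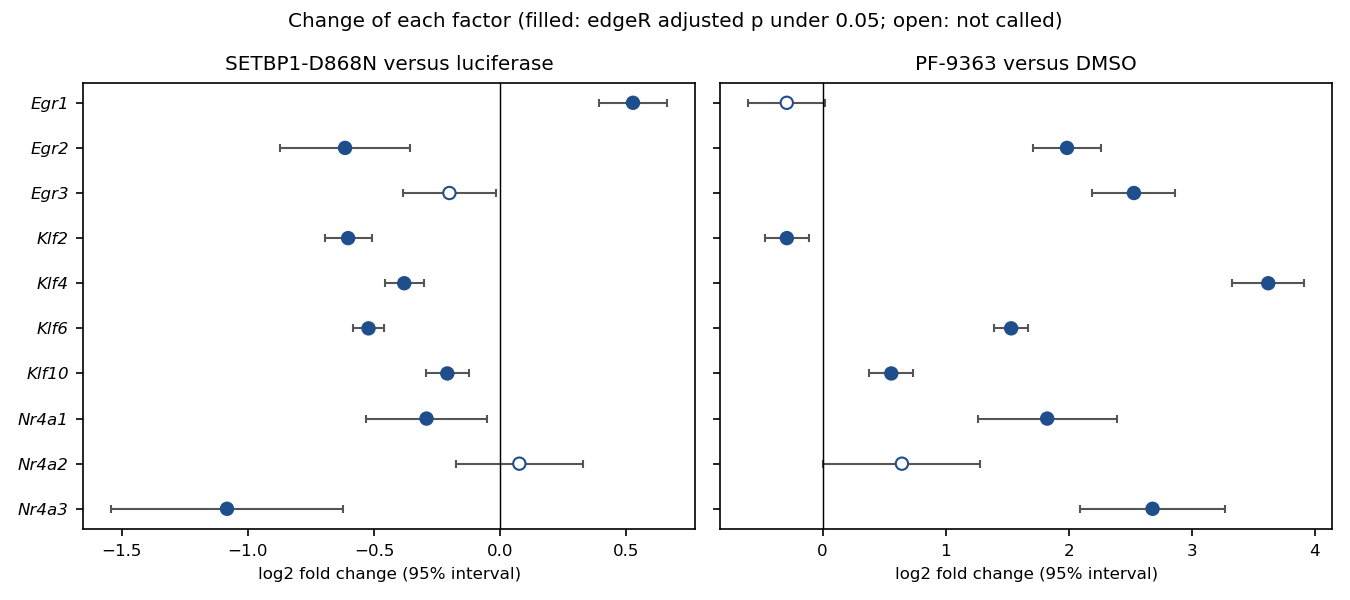
Log2 fold changes of the 10 members for SETBP1D868N against luciferase and for PF-9363 against DMSO, with 95% confidence intervals from the edgeR fit and filled points for adjusted p under 0.05. Klf4 has the highest change with PF-9363 (3.62) and Nr4a3 the lowest with SETBP1D868N (-1.08).

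Egr1, the best known early growth response gene, was the only member that rose with SETBP1D868N. Its level was 14.03, 14.3 and 13.02 CPM in the luciferase libraries and 18.2, 20.4 and 20.99 CPM in the SETBP1D868N libraries. Each SETBP1D868N library lay above each luciferase library, a log2 change of 0.53 (SE 0.062, edgeR adjusted p = 2.58e-05). In DMSO libraries it stood at 29.6, 33.3, 26.1 and 46.5 CPM and with PF-9363 at 27.4, 29.1, 25.1 and 29.1 CPM. The groups overlapped, DMSO replicate 4 stood highest, and the change was -0.29 (95% interval -0.60 to 0.022, edgeR adjusted p = 0.0844). Without DMSO replicate 1 or DMSO replicate 3 the call was gained, at -0.36 (adjusted p = 0.0413) and -0.41 (adjusted p = 0.00822), and without DMSO replicate 4 the change was -0.10 (adjusted p = 0.404).

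Egr2, which directs myeloid and Schwann cell differentiation, moved the other way in the first experiment. It was at 22.1, 20.9 and 22.8 CPM with luciferase and at 12.1, 14.3 and 16.6 CPM with SETBP1D868N. All luciferase libraries were higher, and the log2 change was -0.61 (SE 0.11, edgeR adjusted p = 0.0031). In the second experiment it was at 5.55, 5.89, 7.21 and 8.53 CPM with DMSO and at 27.9, 25.7, 26.9 and 27.7 CPM with PF-9363. The PF-9363 libraries lay close together and above every DMSO library, a 3.96-fold rise (log2 change 1.99, SE 0.13, edgeR adjusted p = 9.90e-14).

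Egr3, a relative that shares the EGR binding sequence, was at 11.5, 10.1 and 9.67 CPM with luciferase and 8.15, 9.60 and 9.51 CPM with SETBP1D868N. The groups did not overlap, but the change of -0.20 (95% interval -0.38 to -0.018) did not pass (edgeR adjusted p = 0.068). Under DMSO its level lay at 2.78, 2.79, 3.56 and 2.72 CPM and with PF-9363 at 19.0, 17.0, 17.1 and 15.6 CPM. Every PF-9363 library was higher, by 5.78-fold on average (log2 change 2.53, SE 0.16, edgeR adjusted p = 4.04e-14).

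Per kilobase of exon, the make-up of the EGR transcripts differed between groups. Egr1 held 25.9% of their summed CPM per kilobase with luciferase and 41.5% with SETBP1D868N, while Egr2 held 54.2% and 39.2%. With DMSO Egr1 held 73.4% and Egr2 19.7%, and with PF-9363 they held 34.2% and 44.1%. The summed level itself ranged from 8.76 to 13.5 CPM per kilobase in DMSO and from 17.4 to 18.6 in PF-9363. These shares are a description, with no test.

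**Figure D3:**
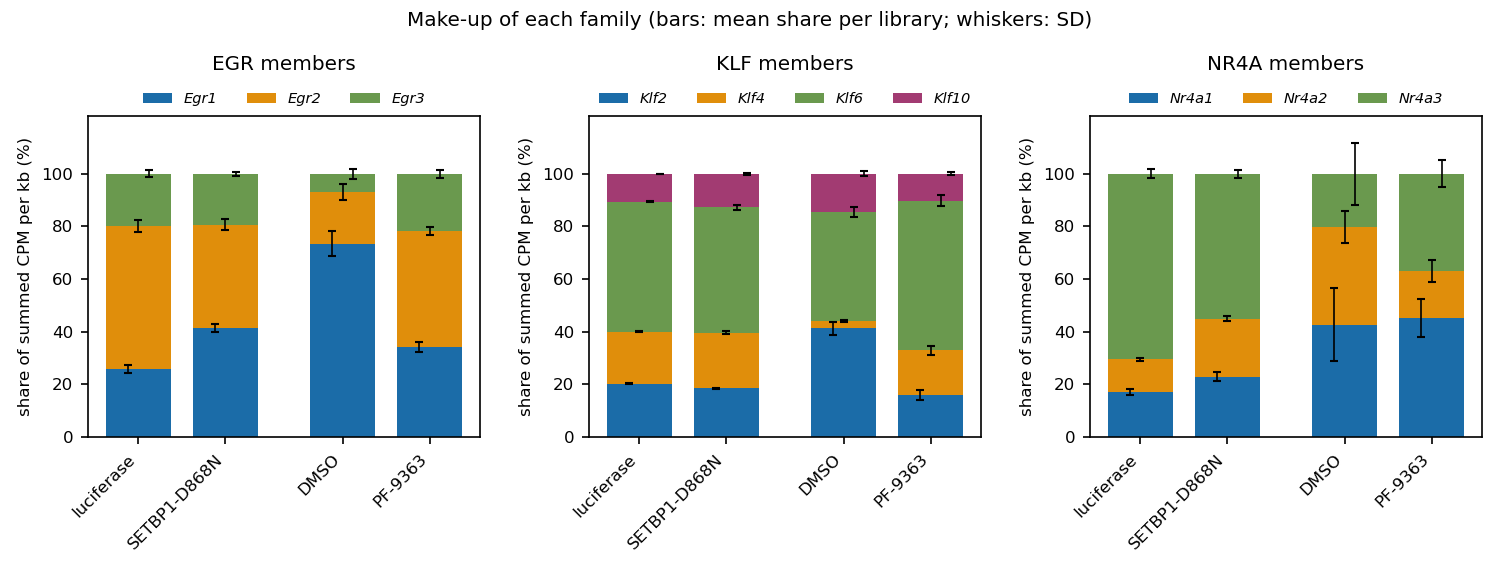
Mean share of each member in the summed CPM per kilobase of its family, by group, with error bars at the top of each segment giving the SD of that segment's share over libraries, which can pass 100%. Egr1 holds 73.4% of the EGR sum with DMSO, and Nr4a3 holds 70.5% of the NR4A sum with luciferase.

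Klf4, a factor that promotes monocyte differentiation, had the highest change of the 10 with PF-9363. With luciferase it was at 52.9, 55.1 and 54.3 CPM and with SETBP1D868N at 40.1, 42.7 and 41.7 CPM. The groups did not overlap, and the log2 change was -0.38 (SE 0.035, edgeR adjusted p = 3.87e-06). With DMSO it was at 4.66, 6.19, 5.99 and 7.08 CPM, from 47 to 78 counts, and with PF-9363 at 61.4, 64.2, 82.0 and 88.6 CPM. The lowest PF-9363 library lay far above the highest DMSO library, a 12.3-fold rise (log2 change 3.62, SE 0.14, edgeR adjusted p = 7.15e-16).

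Klf2, a factor of quiescent lymphoid, endothelial and myeloid cells, was the only member lower in both experiments. It was at 32.1, 34.5 and 34.0 CPM with luciferase and 21.7, 22.6 and 21.9 CPM with SETBP1D868N. The groups were well apart (log2 change -0.60, SE 0.043, edgeR adjusted p = 4.87e-07). In DMSO libraries it stood at 50.3, 48.5, 54.9 and 52.9 CPM and with PF-9363 at 43.2, 41.6, 36.6 and 46.9 CPM. All PF-9363 libraries were lower (log2 change -0.29, SE 0.086, edgeR adjusted p = 0.00332), and with library size alone as the scaling the change was -0.52.

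Klf6, a factor of injury and inflammatory responses, was at 189.5, 196 and 196 CPM with luciferase and 137, 135 and 132 CPM with SETBP1D868N. The change was -0.52 (SE 0.0275, edgeR adjusted p = 5.48e-08) with no overlap. Under DMSO its level lay at 119, 126, 113 and 135 CPM and with PF-9363 at 337, 329.7, 393 and 366 CPM. The rise was 2.89-fold (log2 change 1.53, SE 0.068, edgeR adjusted p = 6.73e-18), again with no overlap.

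Klf10, a TGF-beta inducible repressor, had the smallest changes among the called KLF genes apart from Klf2 with PF-9363. It was at 38.5, 40.3 and 40.2 CPM with luciferase and 33.1, 35.2 and 34.5 CPM with SETBP1D868N (log2 change -0.21, SE 0.039, edgeR adjusted p = 7.69e-04). With DMSO it was at 43.1, 41.6, 36.4 and 43.5 CPM and with PF-9363 at 52.2, 59.6, 65.8 and 65.4 CPM. The groups did not overlap in either experiment, and the rise was 1.47-fold (log2 change 0.56, SE 0.088, edgeR adjusted p = 1.82e-06), or 0.33 on the log2 scale with library size alone.

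Klf6 had the highest mean CPM per kilobase of all 10 genes in each group, at 44.2 with luciferase, 30.8 with SETBP1D868N, 28.1 with DMSO and 81.2 with PF-9363. In DMSO its libraries overlapped those of Klf2, the next in order, and in the other 3 groups they did not. Klf4 was the sixth in order with DMSO, where its libraries overlapped those of Egr2, and the second with PF-9363, where they overlapped those of Klf2. Its share of the summed KLF level was 2.88% with DMSO and 16.9% with PF-9363, while that of Klf2 was 41.3% and 16.0%.

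**Figure D4:**
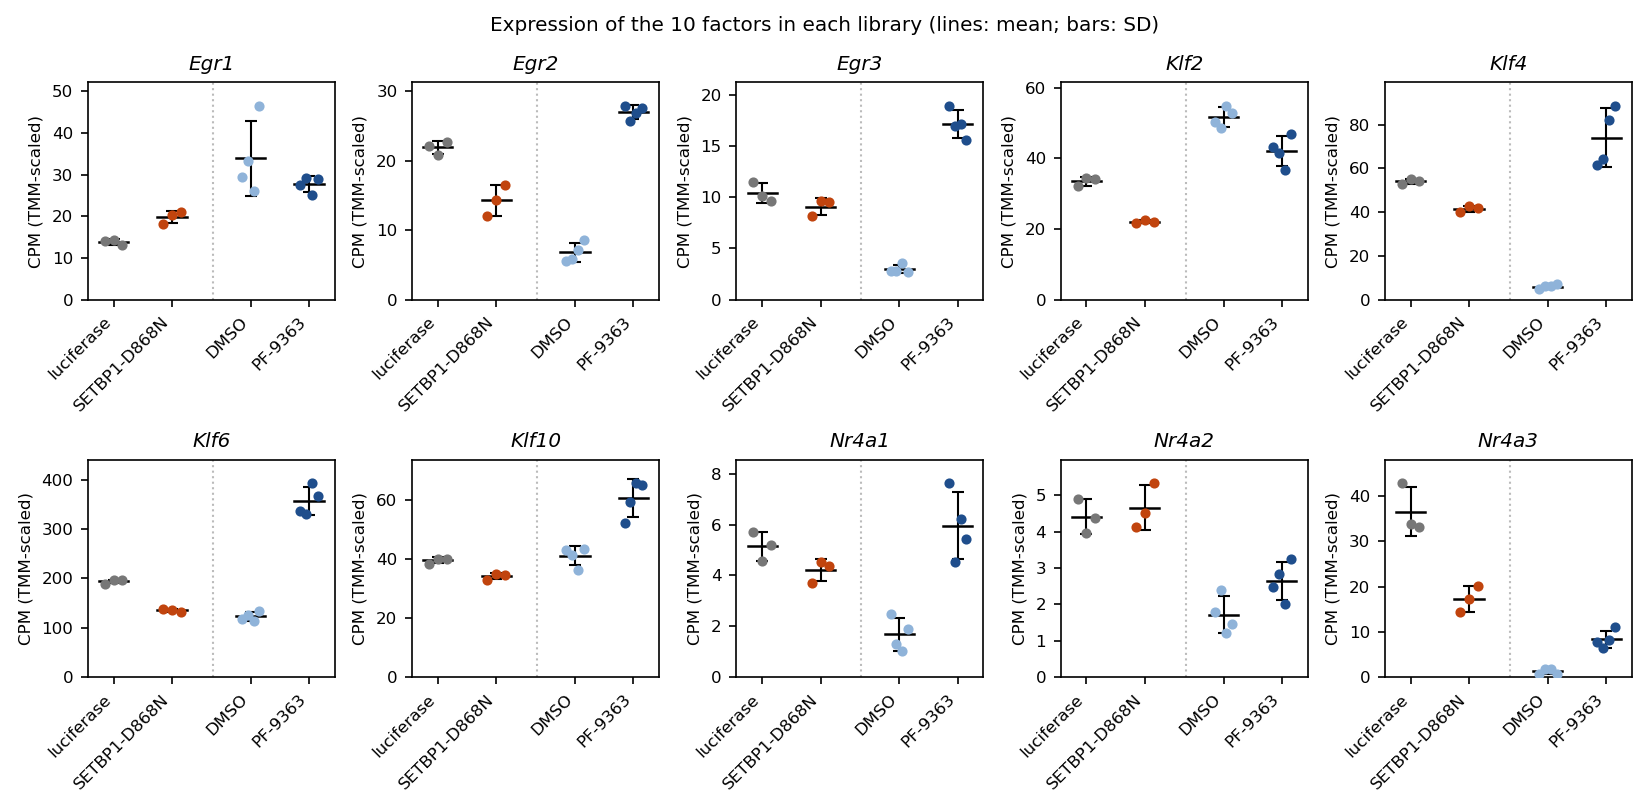
CPM of each member in each of the 14 libraries, by group, with group means. The PF-9363 points lie above the DMSO points without overlap for Egr2, Egr3, Klf4, Klf6, Klf10, Nr4a1 and Nr4a3.

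Nr4a3, an orphan nuclear receptor whose loss together with Nr4a1 leads to myeloid leukaemia in mice, had the lowest log2 change with SETBP1D868N. It was at 42.9, 33.8 and 33.2 CPM with luciferase and at 14.4, 17.4 and 20.2 CPM with SETBP1D868N. The groups did not overlap, and the level was 2.12-fold lower (log2 change -1.08, SE 0.17, edgeR adjusted p = 0.00643). In that experiment its dispersion, the spread between libraries beyond counting error, was 10.1 times the trend for genes of its level, the highest ratio among the members, with Egr2 next at 3.52. A fold of at least 2 in this direction was found for 2.48% of all genes. In DMSO libraries it stood at 0.694, 1.90, 1.87 and 0.726 CPM, from only 7 to 20 counts, and with PF-9363 at 7.73, 6.45, 8.09 and 11.1 CPM. All PF-9363 libraries were higher, by 6.42-fold (log2 change 2.68, SE 0.29, edgeR adjusted p = 2.15e-09).

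Nr4a1, which restrains inflammatory macrophages and is needed for patrolling monocytes, was at 5.69, 4.55 and 5.19 CPM with luciferase and 3.70, 4.51 and 4.38 CPM with SETBP1D868N. The nearest libraries differed by little, and the change of -0.29 (SE 0.11) passed narrowly (edgeR adjusted p = 0.0458). The call was lost in 9 of 14 alternatives, among them leaving out luciferase replicate 1 (adjusted p = 0.180), luciferase replicate 3 (0.107), SETBP1D868N replicate 1 (0.153) or SETBP1D868N replicate 3 (0.0537), over a range of 0.0175 to 0.180. Under DMSO its level lay at 2.48, 1.30, 1.03 and 1.91 CPM and with PF-9363 at 7.62, 4.51, 6.23 and 5.42 CPM. These groups did not overlap, and the rise was 3.54-fold (log2 change 1.82, SE 0.28, edgeR adjusted p = 8.82e-07).

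Nr4a2, best known for dopamine neurons, did not pass in either experiment. It was at 4.91, 3.98 and 4.36 CPM with luciferase and 4.13, 4.51 and 5.33 CPM with SETBP1D868N. The groups overlapped, with a change of 0.076 (95% interval -0.18 to 0.33, edgeR adjusted p = 0.626). With DMSO it was at 1.78, 2.39, 1.22 and 1.45 CPM and with PF-9363 at 2.47, 2.84, 2.02 and 3.25 CPM. These groups overlapped as well, at 13 to 30 counts per library, and the change was 0.64 (95% interval 0.0069 to 1.28, edgeR adjusted p = 0.0619). It passed without DMSO replicate 2 (0.84, adjusted p = 0.0267) or PF-9363 replicate 3 (0.75, adjusted p = 0.0451).

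Of the 10 genes, 6 fell with SETBP1D868N and rose with PF-9363: Egr2, Klf4, Klf6, Klf10, Nr4a1 and Nr4a3. Over the 12376 genes tested in both experiments, 16.8% had this pair of calls. Klf2 was lower in both, as were 4.4% of those genes. No member was higher in both, a pair of calls found for 4.65%. The experiments share no libraries, and the difference between their changes was not tested. In bulk RNA, fewer cells of a type and less RNA per cell cannot be told apart.

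Marker lists of monocytes and macrophages, mast cells and basophils, and megakaryocytes had more lower than higher calls with SETBP1D868N and the reverse with PF-9363. Their median log2 changes were -0.64, -0.54 and -0.47 in the first comparison and 2.77, 2.13 and 1.55 in the second. The other marker lists did not have this pair of call directions. The endothelial list, with 2 genes tested in each comparison, had medians of the same signs, -0.25 and 1.18. Of 10 monocyte and macrophage markers, 9 fell and 1 rose with SETBP1D868N, and their summed level was 853 to 887 CPM with luciferase and 526 to 555 with SETBP1D868N. With PF-9363, 8 of 9 tested markers rose, and the sum was 425 to 519 CPM with DMSO and 3119 to 3793 with PF-9363. For 7 mast cell and basophil markers the sum was 4387 to 4598 and 3928 to 4068 CPM in the first experiment, with 3 higher and 4 lower, and 993.5 to 1264 and 4135 to 5142 CPM in the second, with 6 higher and none lower. Of 8 neutrophil markers 3 rose and 5 fell with SETBP1D868N (18403 to 19112 CPM in sum with luciferase, 12952 to 14708 with SETBP1D868N), and 2 rose and 4 fell with PF-9363 (15416 to 18029 CPM with DMSO, 13126 to 14719 with PF-9363). Of 7 stem and progenitor markers 5 rose and 2 fell with SETBP1D868N (949 to 980 and 1127 to 1171 CPM), and 3 rose and 2 fell with PF-9363 (459 to 478 and 544 to 601 CPM). Of 3 megakaryocyte markers 1 rose and 2 fell with SETBP1D868N (267.5 to 283 and 279.6 to 305 CPM), and both that were tested rose with PF-9363 (37.5 to 45.8 and 208 to 228 CPM). Of 5 erythroid markers 3 rose with SETBP1D868N (9.28 to 10.8 and 19.6 to 20.8 CPM), and 1 of 2 tested rose with PF-9363 (4.16 to 6.29 and 5.80 to 12.8 CPM). Beside these counts, 24.5% of all genes tested were called higher and 22.7% lower with SETBP1D868N, and 36.6% and 39.4% with PF-9363. The part of these cell types in the members' changes was not tested.

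Genes around the members were read from 4 lists. Over all genes tested, 24.5% were called higher and 22.7% lower with SETBP1D868N, and 36.6% and 39.4% with PF-9363. Of the other EGR, KLF and NR4A relatives, 7 of 10 fell and 2 rose with SETBP1D868N. Klf12 was at -1.80, but at a low level, with means of 0.690 CPM with luciferase and 0.197 CPM with SETBP1D868N. It held 6 to 50 counts per library, and the next falls were Klf3 at -0.40 and Klf7 at -0.37. Klf1, the erythroid factor that is also among the erythroid markers, was at 0.97. With PF-9363, 7 of 9 tested relatives rose and none fell, with Klf5 at 1.06 and Klf3 at 0.99. Among 20 cofactors and upstream regulators, 5 rose and 8 fell with SETBP1D868N, and 12 rose and 6 fell with PF-9363. Crem, which encodes cyclic AMP responsive regulators, was at -0.38 and 2.13 in the comparisons, called in both. Mef2c, a factor of myeloid and lymphoid progenitors, had the opposite signs, 1.04 and -2.15.

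Other early response genes, which the same signals induce, moved in the direction of most members. With SETBP1D868N 11 of 15 fell and none rose, with Arc at -1.09, Jun at -0.85 and Atf3 at -0.66. With PF-9363 11 of 13 tested rose and 1 fell, with Atf3 at 3.28, Nfkbiz at 2.74, Ier5 at 2.38 and Maff at -0.80. The list's median log2 change was -0.43 and 1.35. Known targets were mixed, with 3 higher and 4 lower of 8 with SETBP1D868N and 3 higher and 3 lower of 7 tested with PF-9363. S1pr1, a lymphocyte egress receptor that Klf2 activates, was at -1.14 and 3.11, while Klf2 itself fell in both. Cdkn1a, a cell cycle inhibitor that Klf4 and Klf6 induce, was at -0.24 and 1.26. S1pr1 and Cdkn1a passed the test in both comparisons, and Nab2, a corepressor of EGR proteins that rose with PF-9363 (1.16), stands in both the cofactor and the target list.

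**Figure D5:**
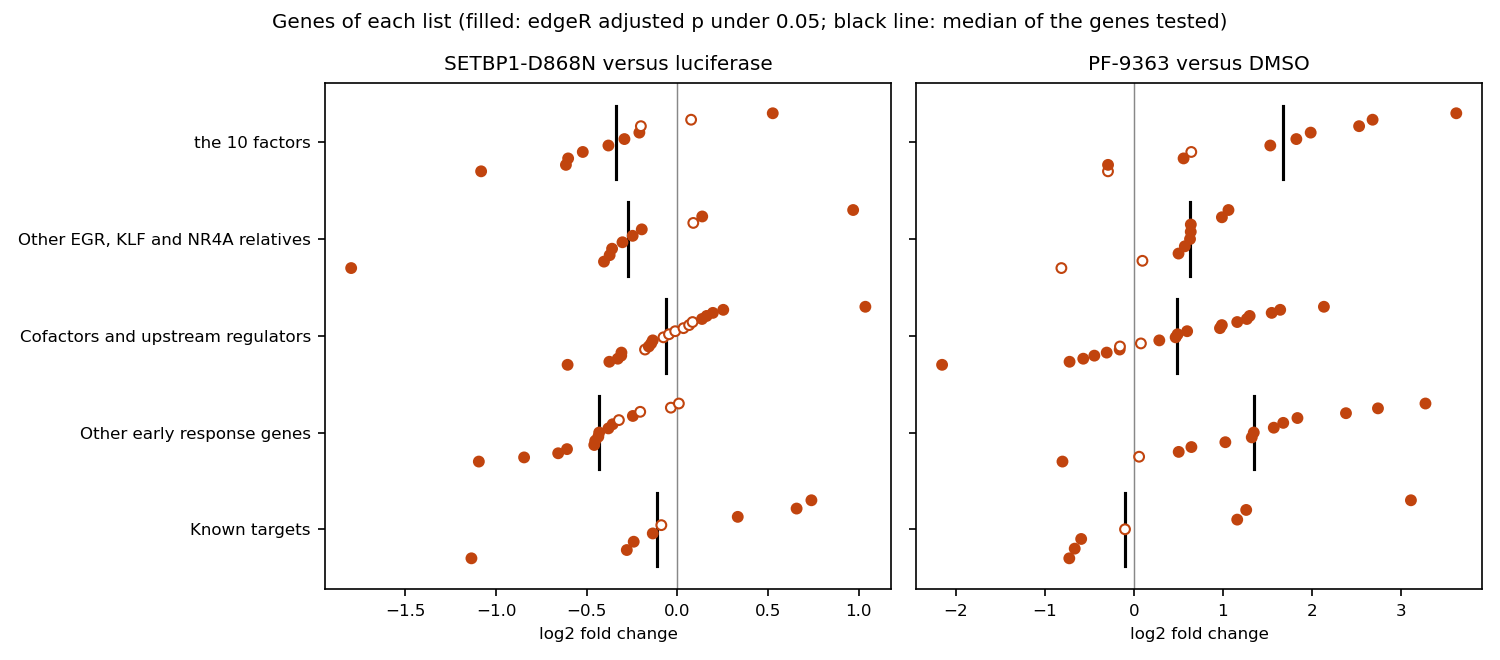
Log2 fold changes of the 10 members and of the genes in the 4 lists around them, for SETBP1D868N against luciferase and PF-9363 against DMSO, with filled points for adjusted p under 0.05 (edgeR) and lines at the medians. The early response genes have a median of -0.43 in the first comparison and 1.35 in the second.

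Across the 14 libraries, with each gene's log2 CPM centred within its experiment, Klf4 was most like Cd9 (Pearson r = 0.999), a surface protein of mast cells and megakaryocytes, among 9361 candidates. Klf6 was most like Plau (0.999), which encodes urokinase, Egr2 like Cttnbp2nl (0.994), Egr3 like Tbxas1 (0.995), which encodes thromboxane synthase, and Nr4a3 like Bcl3 (0.986). Egr1 and Klf2 stood apart from the other members. The r of Egr1 with the other 9 ran from -0.61 to -0.083 and that of Klf2 from -0.40 to -0.14. These values are descriptions across libraries that share the group differences and their depth.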

How the data were processed

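The authors deposited raw gene counts per library, 1 table per experiment, and per the submitters' processing notes STAR, DESeq2, GRCm38 and mm10 were used, with no role or version given. The counting program, gene annotation and use of strand are not given in the sources used here. From these counts, genes were kept with edgeR's filterByExpr (minimum count 10, minimum total 15), scaled by TMM and tested per experiment with edgeR 4.0.16 (quasi-likelihood, robust, R 4.3.3), with Benjamini-Hochberg adjustment at 0.05 over all genes tested and no covariates. CPM uses TMM-scaled library sizes, and CPM per kilobase the union of GENCODE M21 exons. DESeq2 1.42.0, limma-voom 3.58.1, other scalings and filters, a replicate block and leaving out each library were alternatives. The members and lists were chosen with earlier results of these data known. All 10 members are named, and from each list up to 3 genes per direction with the largest changes were taken among those called with groups that did not overlap. A gene that this rule picks among the known targets is not reported here. Likeness was ranked among genes with a mean of at least 5 CPM in each experiment.

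The fit was tested on simulated counts. Fold changes were recovered without bias, and the share of false calls was near the threshold when dispersions lay on the trend. With gene-specific dispersions that share exceeded the threshold, more so in the design with 3 libraries per group, and mostly for genes more variable than the trend. This touches Nr4a3 and Egr2 in the SETBP1D868N comparison, whose adjusted p-values may therefore be too small.

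Replicates of a group differed by more than counting noise in all 18 pairs (chi-square per degree of freedom 2.28 to 27.7), so none was counted as a repeat of another.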

Additional observations from a re-analysis of the deposited data

Results flagged for a closer look

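Egr3 in the DMSO group had a library that Dixon's rule set apart from the others. The libraries held only 28, 28, 38 and 30 counts, and the part of counting error in this gap was not tested. DMSO replicate 3 was at 3.56 CPM, and the nearest of the other 3 was at 2.79 CPM, a gap of 0.914 of the group's range, above Dixon's limit for 4 samples. Of the 20 groups of 4 libraries examined, this was the only one, and chance gives about 1 in 20. Every PF-9363 library remained above it.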

How the results depend on the processing

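Of 300 alternative values for the 20 member results, 281 kept direction and side of the threshold, 10 lost the call, 8 gained it and 1 changed sign. Nr4a2 with SETBP1D868N ranged from -0.036 to 0.16 when leaving out each library, the lowest without SETBP1D868N replicate 3. The count of members higher with SETBP1D868N was 1 in every alternative, that of members lower ranged from 5 to 8, and that of members higher with PF-9363 from 7 to 8. The count lower with PF-9363 went from 1 to 2 with library size alone, with no filter beyond 1 count and with the replicate block, and was 1 to 2 when leaving out each library, the added gene being Egr1. Library size alone shifted the median change of all genes with PF-9363 by -0.23, where Egr1 was at -0.52 (adjusted p = 0.00286), Klf2 at -0.52, Klf10 at 0.33 and no member changed sign. With that scaling 62.1% of calls were higher with SETBP1D868N (51.9% with TMM) and 36.2% with PF-9363 (48.1% with TMM). Same-numbered libraries did not deviate together (r from -0.0968 to -0.0369 and from -0.0402 to 0.00753), and none correlated best with its own number. These values give no sign of pairing by number, but so few libraries cannot exclude a shared animal or day. With the replicate block 5 members were lower with SETBP1D868N, and Nr4a3 was at -1.08 (adjusted p = 0.0566) and Nr4a1 at adjusted p = 0.0934. Counts of 7 to 38 per library limit Egr3, Nr4a1, Nr4a2 and Nr4a3 in DMSO.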

Other observations

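Libraries with SETBP1D868N and no inhibitor occur in both experiments, which differ in RNA input, library preparation, depth and culture, so their levels are set side by side with no test. Nr4a3 had a mean of 17.3 CPM in the first and 1.30 CPM in the DMSO group of the second, and Klf4 41.5 and 5.98 CPM. Klf10 had 34.3 and 41.2 CPM, Klf2 22.1 and 51.6 CPM, and Egr1 19.9 and 33.9 CPM. With PF-9363, Klf4 was at 74.1 CPM, above the luciferase mean of 54.1, while Nr4a3 at 8.33 CPM stayed below the luciferase mean of 36.6.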
